A study of Rattus norvegicus with 24 samples.

Results

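Givinostat without cytokines at 6 h was examined by setting the 3 arrays titled 6h_Giv_Ctrl against the 3 titled 6h_Ctrl, 6 of the 24 arrays of the study, chosen by their titles alone. The arrays measured miRs in INS1 cells, a rat insulinoma line that is insulin-secreting and used in place of primary β-cells. In 6h_Giv_Ctrl the cells received 125 nM Givinostat (ITF2357), a broad inhibitor of lysine deacetylases, 1 h before the 6 h period began, and in 6h_Ctrl they were left without it. Neither group received IL-1β or IFN-γ, and the cells of both groups had been cultured for 48 h beforehand. The question was which miRs differ early after deacetylase inhibition alone. The deposited design text speaks of technical replicates and the methods only of replicates, so the spread between arrays behind the p-values may be technical. In the main fit this spread was estimated within the groups of all 24 arrays, not from the 6 compared arrays alone. The samples are bulk RNA of a single tumour line, in which fewer cells of a type and less RNA per cell cannot be told apart.

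Each array held 16 spots for each of 758 miRs. The scanner software marks spots well above background; a miR with this mark on 8 or more of its 16 spots of an array counted as well above background there, and as detected when this held on all 3 arrays of either group. By this rule 130 miRs were detected, 186 were well above background on at least 1 of the 6 arrays and 572 on none. All 130 were well above background on the 3 6h_Ctrl arrays and 117 on the 3 6h_Giv_Ctrl arrays. No miR was well above background on every array of either group and on none of the other, and no spot was saturated.

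Markers of β-cells were detected in part, among them miR-375-3p and miR-7a-5p, known from islet endocrine cells, the clustered miR-183-5p, miR-96-5p and miR-182, and the epithelial miR-200c-3p and miR-141-3p. The epithelial miR-200a-3p, miR-200b-3p and miR-429, which share a cluster of their own, exceeded background well on none of the 6 arrays. The islet miRs miR-7b, miR-7a-1-3p, miR-184, miR-211-5p and miR-9a-5p were not detected either. Markers of other cells were mostly below that level. None of 7 blood cell miRs, 1 liver miR, 2 endothelial miRs, 5 stromal miRs and 3 exocrine pancreas miRs was detected. Endothelial miR-126a-3p on 1 array and stromal miR-214-3p on 3 arrays were the members of these lists that reached it on any of the 6. Of 7 muscle miRs, only miR-206-3p was detected. Its log2 signal was 7.14, 6.70 and 6.93 in 6h_Ctrl and 6.55, 7.15 and 7.11 in 6h_Giv_Ctrl, with replicate 1 the lowest of the treated arrays and the groups overlapping.

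1 of the treated arrays stood apart. Replicate 1 of 6h_Giv_Ctrl lay on another slide and was scanned on another day than the remaining 5 arrays, which shared a slide, and its file carries another hybridization project label; whether its RNA was prepared with the rest is not stated. Its brightness, the 75th percentile of processed intensity among 117 miRs with signals above background throughout, was 682, against 401 and 311 on the other treated arrays and 416, 320 and 279 on 6h_Ctrl replicates 1 to 3; the other 2 arrays of its slide and scan day, 24h_Cyt replicates 1 and 2, had 1003 and 742. After quantile normalization its Pearson's r across the 130 detected miRs was 0.886 and 0.890 with the other treated arrays and 0.985 with 6h_Ctrl replicate 2, whereas treated replicates 2 and 3 correlated at 0.996 with each other and at 0.994 and 0.989 with 6h_Ctrl replicate 1. The miRs of an array are not independent, so these correlations describe the arrays only. The values of treated replicate 1 differed from the mean of the other treated arrays by more than 0.5 on the log2 scale for 55 of the 130 miRs, against 0 to 13 miRs for any of the other 5 arrays compared in the same way. The part of the slide, the scan and the brightness in these differences was not tested, and the main results are given with and without this array. Without it, all arrays compared lie on 1 slide.

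**Figure D1:**
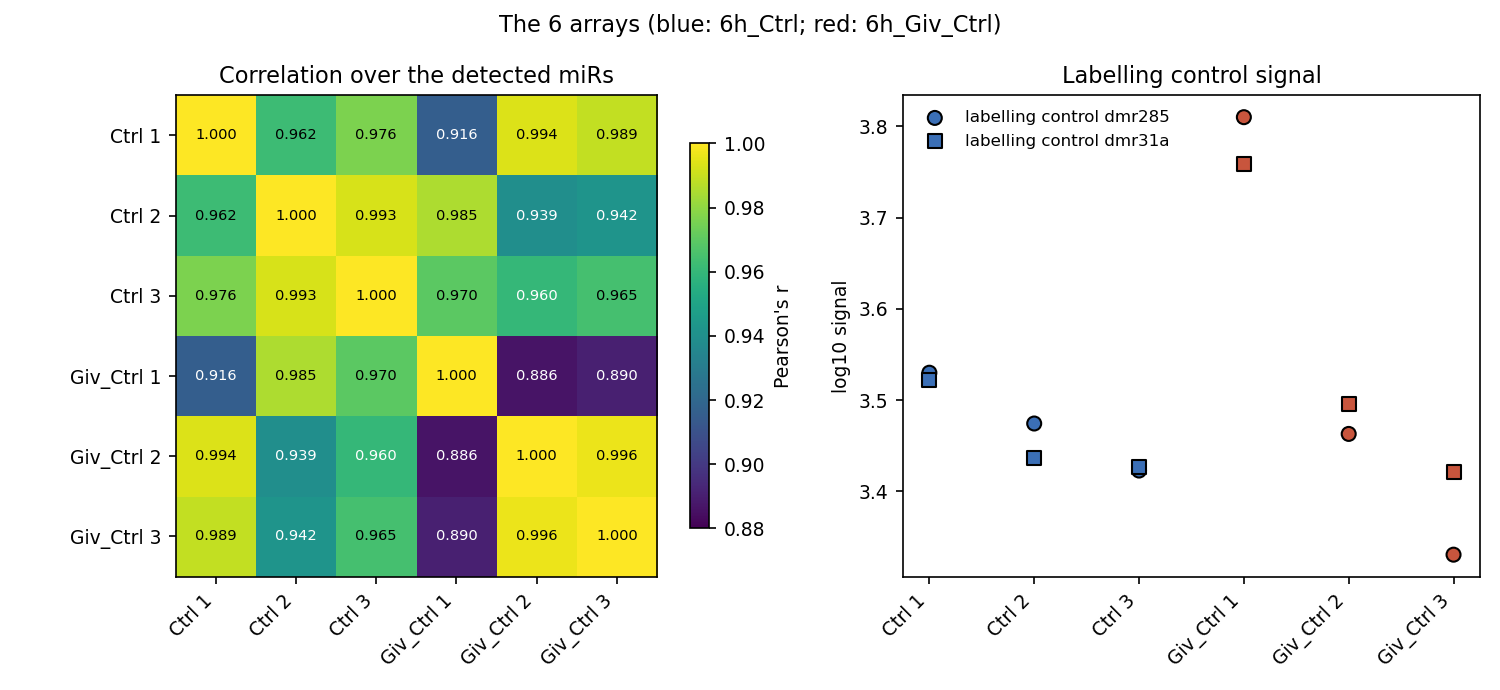
Left, Pearson's r between the 6 arrays over the 130 detected miRs (colour scale and printed values, no unit); right, log10 signal of 2 labelling controls on each array (circles dmr285, squares dmr31a; blue 6h_Ctrl, red 6h_Giv_Ctrl). Treated replicate 1 has r of 0.886 and 0.890 with the other treated arrays and the highest labelling controls, 3.81 and 3.76.

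miRs are short RNAs that guide the silencing machinery to messenger RNAs through pairing of the seed, the bases near the 5′ end, so that miRs with a common seed share many targets. Lysine deacetylases remove acetyl groups from histones and other proteins, and their inhibition changes the transcription of many genes, miR genes among them. The let-7 family restrains growth and favours the differentiated state of many cell types, and miR-7 is enriched in islet endocrine cells, where it restrains insulin secretion.

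Mature sequences were found for 685 of the 758 array miRs in RefSeq (assembly GRCr8). Those below are given 5′ to 3′ with the seed, bases 2 to 8, in capitals. The first set shares the let-7 seed and is shown because most of its members were lower in the treated arrays; the 9 miRs found with this seed among the 685 were all detected.
let-7a-5p: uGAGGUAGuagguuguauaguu
let-7b-5p: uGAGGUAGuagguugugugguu
let-7c-5p: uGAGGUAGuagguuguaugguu
let-7d-5p: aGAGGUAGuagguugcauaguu
let-7e-5p: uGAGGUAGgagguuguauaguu
let-7f-5p: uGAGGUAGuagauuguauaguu
let-7g-5p: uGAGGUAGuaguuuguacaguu
let-7i-5p: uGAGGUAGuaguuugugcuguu
miR-98-5p: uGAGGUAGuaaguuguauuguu
Next come the detected miRs whose treated arrays all lay above the controls, with miR-23a-3p, which shares the seed of miR-23b-3p and was not detected.
miR-7a-5p: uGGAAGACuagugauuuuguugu
miR-23b-3p: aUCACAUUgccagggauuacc
miR-23a-3p: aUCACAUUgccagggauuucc
The last set holds the miRs with seeds of their own that were called when single spots entered the test.
miR-210-3p: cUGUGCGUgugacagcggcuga
miR-3099: uAGGCUAGaaagagguugggga
miR-346: uGUCUGCCugagugccugccucu

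let-7a-5p differs from let-7c-5p, let-7e-5p and let-7f-5p at 1 position each, from let-7b-5p, let-7d-5p, let-7g-5p and miR-98-5p at 2 positions and from let-7i-5p at 4. Members this alike can hybridize to each other's probes, and how much of one member's signal came from another was not tested.

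On quantile-normalized signal, members of the let-7 family were lower in the treated arrays in most of their values. In that setting miR-7a-5p and miR-23b-3p were higher, but no miR passed the test. On the processed signal scaled to detected or to all miRs, miR-7a-5p had log2FCs of -0.080 and -0.11 and miR-23b-3p -0.0033 and -0.033. limma on array means called 0 of 758 miRs (0%) at an absolute log2FC above log2 of 1.1 and a Benjamini-Hochberg adjusted p below 0.05, and the smallest adjusted p was 0.979. At an unadjusted p below 0.05 there were 34 miRs, 6 higher (0.792% of 758) and 28 lower (3.69%) with Givinostat, of which 26 were not well above background on any of the 6 arrays. With the compared groups fitted alone, limma gave 6 miRs of 758 at an unadjusted p below 0.05. When single spots entered the test with limma's pooled correlation, 4 miRs were called, 2 higher (0.264%) and 2 lower (0.264%). Over the 130 detected miRs the median log2FC was 0.0043 and the median absolute log2FC 0.085, with 68 higher and 62 lower. Without normalization between arrays the median of the detected miRs was 0.23 and that of all miRs 0.04, and 25 of the 74 miRs examined by name changed sign. The median standard error (SE) of a detected miR, from the fit of all 24 arrays, was 0.13, and 1 detected miR was higher and 6 were lower at an unadjusted p below 0.05. No detected miR reached an absolute log2FC of 0.5, and 4 exceeded 0.25: let-7c-5p, let-7e-5p, miR-128-3p and miR-346. miR-128-3p, which was in no list, read 7.14, 7.41 and 7.29 in 6h_Ctrl and 7.39, 6.80 and 6.80 in 6h_Giv_Ctrl, with treated replicate 1 among the controls; its log2FC of -0.28 ran from -0.48 to -0.18 when each of the 6 arrays was left out and turned to 0.03 without normalization.

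Without treated replicate 1, again 0 miRs were called by limma and the smallest adjusted p was 0.175, within a range of 0.0667 to 0.999 when each of the 24 arrays was left out in turn. The miRs at an unadjusted p below 0.05 then numbered 108, 39 higher (5.15%) and 69 lower (9.1%), and among the detected miRs 13 higher and 30 lower. The detected miRs then had a median log2FC of -0.08 and a median absolute log2FC of 0.20, and 11 exceeded 0.5. Control arrays moved the number too: it was 85 without 6h_Ctrl replicate 1, 24 without replicate 2 and 20 without replicate 3, with 0 called each time. The values within the shared slide are those without treated replicate 1; fitted on these 5 arrays alone, limma called 0 miRs, with 64 at an unadjusted p below 0.05 and a smallest adjusted p of 0.127. With the slide as a fixed block in the fit of all arrays, limma called 0 miRs, with 36 at an unadjusted p below 0.05 and a smallest adjusted p of 0.809. Values given below with the slide as a block are from this fit unless a random block is named.

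**Figure D2:**
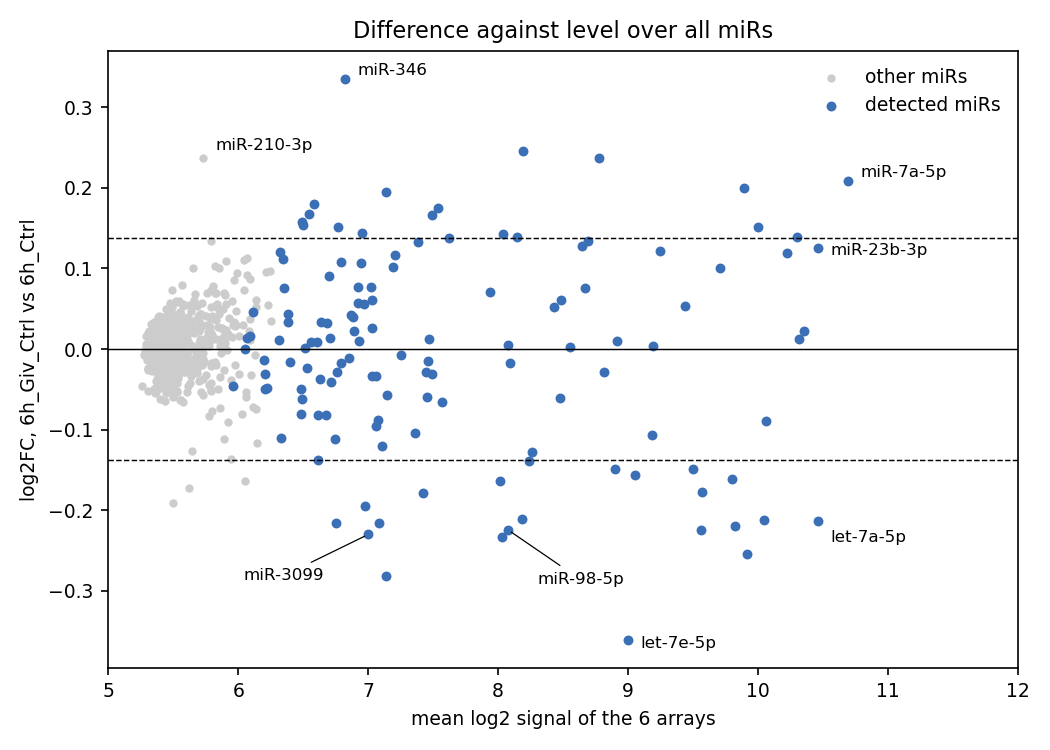
log2FC of 6h_Giv_Ctrl against 6h_Ctrl (vertical) by mean log2 signal of the 6 arrays (horizontal) for 758 miRs, with the 130 detected in blue and dashed lines at the log2FC minimum of the call. Detected miRs scatter on both sides of 0, from let-7e-5p at -0.36 to miR-346 at 0.34, and none was called by limma on array means.

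The let-7 family gave the lowest median of the lists on quantile-normalized array means, although the reference list, which holds let-7c-5p, was lower with the median over spots (-0.25 against -0.24), in the deposited table and without 6h_Ctrl replicate 1. let-7a-5p had a log2 signal of 10.53, 10.64 and 10.53 in 6h_Ctrl replicates 1 to 3 and 10.45, 10.31 and 10.30 in the treated ones. All 3 treated arrays lay below all 3 controls, 10.57 ± 0.06 against 10.35 ± 0.09 (SD, n = 3). let-7a-5p was the sole detected miR with non-overlapping groups and lower treated values; over all 758 miRs, 18 (2.37%) had such lower and 15 (1.98%) such higher values, and 29 of these 33 were not well above background on any of the 6 arrays. Its log2FC was -0.21 (SE 0.09, 95% confidence interval -0.41 to -0.02; limma, unadjusted p = 0.0345, adjusted p = 0.979), -0.26 without treated replicate 1 and -0.18 without 6h_Ctrl replicate 2, the extremes of leaving out 1 of the 6 arrays, -0.21 with the slide as a block and -0.02 without normalization between arrays. Both of its probe sequences gave non-overlapping groups, with log2FCs of -0.26 and -0.17.

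let-7e-5p had the lowest log2FC of any detected miR. Its signals were 9.08, 9.38 and 9.07 in 6h_Ctrl and 9.14, 8.71 and 8.60 in 6h_Giv_Ctrl. Treated replicate 1 lay among the controls and the other treated arrays below all of them. The log2FC was -0.36 (SE 0.14; limma, unadjusted p = 0.0169, adjusted p = 0.979), -0.52 without treated replicate 1, -0.25 without replicate 3, -0.44 with the slide as a block and -0.07 without normalization between arrays. miR-125a-5p, encoded next to let-7e, was outside the lists and is named after its values were seen: it had signals of 8.03, 8.21 and 8.19 in 6h_Ctrl and 8.13, 7.77 and 7.83 in 6h_Giv_Ctrl, with the same placing of replicate 1. Its log2FC of -0.23 turned to 0.11 without normalization between arrays.

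let-7b-5p, let-7c-5p, let-7d-5p and let-7i-5p were likewise lowest on treated replicates 2 and 3. For let-7c-5p the signals were 10.005, 10.105 and 10.009 in 6h_Ctrl and 10.072, 9.678 and 9.606 in 6h_Giv_Ctrl, a log2FC of -0.25 (SE 0.11) that was -0.40 without treated replicate 1, -0.16 without replicate 3 and -0.02 without normalization. Treated replicate 1 lay within the controls for let-7b-5p and let-7c-5p and above all of them for let-7d-5p and let-7i-5p, while replicates 2 and 3 lay below them for all of these members. The log2FCs of let-7b-5p, let-7d-5p and let-7i-5p were -0.21, -0.22 and -0.15, those of let-7b-5p and let-7i-5p turning to 0.0008 and 0.01 without normalization between arrays, and they were -0.29, -0.37 and -0.32 without treated replicate 1. Without treated replicate 3 they were -0.18, -0.12 and -0.03. let-7g-5p, which was not in the list and is given after its values were seen, had 9.05, 9.27 and 9.06 in 6h_Ctrl and 9.23, 8.90 and 8.80 in 6h_Giv_Ctrl, a log2FC of -0.16 that was -0.28 without treated replicate 1, -0.07 without replicate 3 and -0.08 without 6h_Ctrl replicate 2 and turned to 0.10 without normalization. Its treated replicate 1 lay among the controls and the others below.

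let-7f-5p differed in its values from the rest of the family. It had signals of 10.40, 10.33 and 10.29 in 6h_Ctrl and 10.42, 10.38 and 10.29 in 6h_Giv_Ctrl, so the groups overlapped throughout. Its log2FC was 0.02 (SE 0.06, 95% confidence interval -0.11 to 0.15), which turned to -0.22 and -0.25 on the processed signal when it was scaled by the 75th percentile of detected or of all miRs.

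Across the 8 listed let-7 miRs, all detected, 7 log2FCs were negative on quantile-normalized signal, 4 of them with an unadjusted p below 0.05 (6 of the 130 detected miRs were lower at that p) and 0 called by limma on array means, whereas miR-98-5p was called with the pooled correlation, and the median was -0.22 (range -0.36 to 0.02), against 0.0043 over all detected miRs. Without treated replicate 1 the median was -0.32 against -0.08 over all detected miRs, and 7 of the 8 were lower at an unadjusted p below 0.05, as were 30 of the 130 detected miRs. The family's median was -0.34 and -0.36 on the processed signal scaled to detected or to all miRs, and it was -0.0058 without normalization between arrays, a setting in which 4 members were positive and the median of all detected miRs was 0.23. The summed signal of the 8 miRs was 12.86, 12.98 and 12.85 in 6h_Ctrl and 12.91, 12.65 and 12.58 in 6h_Giv_Ctrl, on the log2 scale. The sum of treated replicate 1 lay among the controls and those of the other treated arrays below them.

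**Figure D3:**
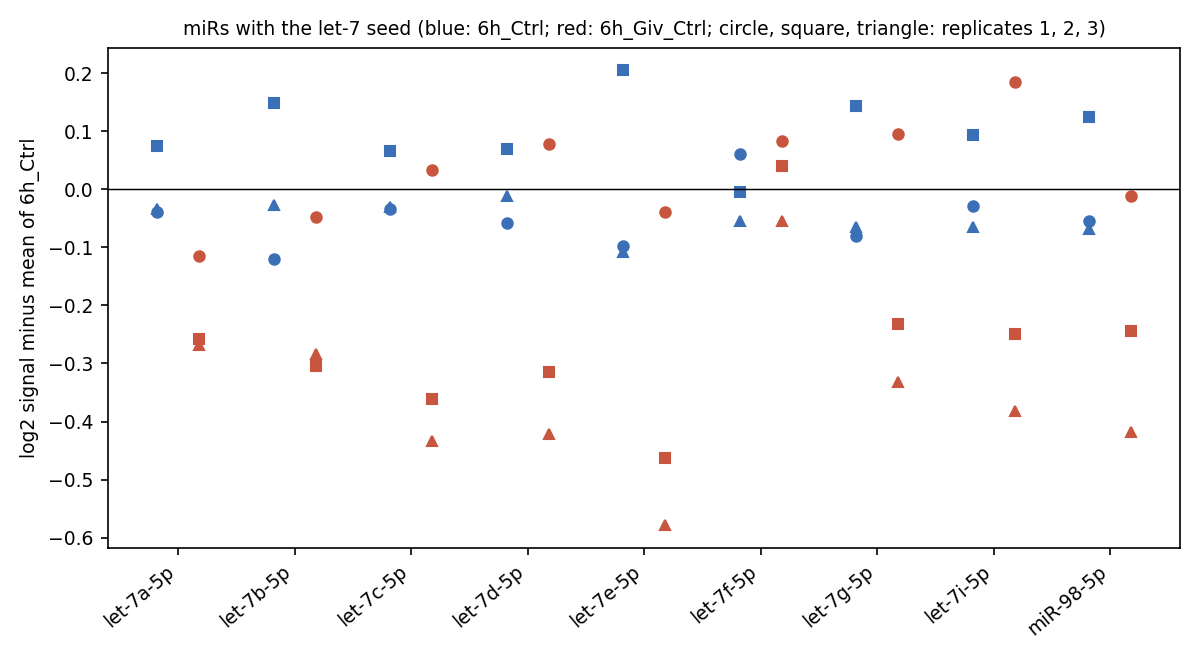
log2 signal minus the mean of 6h_Ctrl (vertical) for the 9 miRs with the let-7 seed; blue 6h_Ctrl, red 6h_Giv_Ctrl, circles, squares and triangles for replicates 1 to 3. Treated replicates 2 and 3 lie below the controls for every miR but let-7f-5p, treated replicate 1 only for let-7a-5p, and the negative log2FCs of let-7b-5p, let-7g-5p, let-7i-5p and miR-98-5p turn positive without normalization between arrays. In that setting the median log2FC of all detected miRs is 0.23.

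miR-7a-5p, the miR of islet endocrine cells, was higher in the quantile-normalized values but not on the processed signal. Its log2 signal was 10.57, 10.49 and 10.71 in 6h_Ctrl and 10.87, 10.74 and 10.78 in 6h_Giv_Ctrl. Every treated array lay above every control array, with replicate 1 the highest. Its log2FC was 0.21 (SE 0.07, 95% confidence interval 0.05 to 0.36; limma, unadjusted p = 0.0117, adjusted p = 0.979), 0.17 without treated replicate 1 (0.16 to 0.27 over the 6 arrays left out in turn) and 0.19 with the slide as a block, but it turned to -0.080 and -0.11 on the processed signal when it was scaled by the 75th percentile of detected or of all miRs and was 0.08 with outlier spots left out. Of its 2 probes, the first read 12.03, 11.77 and 12.20 in 6h_Ctrl and 12.20 on each treated array. On 4 of the 6 arrays its 8 spots were the 8 highest of all miR spots, which quantile normalization sets to the same values, so this probe could not differ among these arrays. On 6h_Ctrl replicates 1 and 2 only 7 and 4 of the 8 highest spots were of miR-7a-5p, the rest being of other miRs. Before normalization the probe read 3754.5, 3398 and 2721 in 6h_Ctrl and 6018, 3288 and 2565 in 6h_Giv_Ctrl. The second probe read 9.11, 9.21 and 9.23 in 6h_Ctrl and 9.55, 9.27 and 9.37 in 6h_Giv_Ctrl, again without overlap. Before normalization the mean intensity of miR-7a-5p was 2147, 1960 and 1574 in 6h_Ctrl and 3460, 1918 and 1506 in 6h_Giv_Ctrl, where only replicate 1 of the treated arrays lay above the controls.

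miR-23b-3p, known to repress glutaminase, showed the tightest groups among the miRs described. It gave 10.39, 10.40 and 10.41 in 6h_Ctrl and 10.53, 10.53 and 10.52 in 6h_Giv_Ctrl. The treated arrays, replicate 1 included, all lay above the controls. The log2FC was 0.13 (SE 0.07; limma, unadjusted p = 0.0769, adjusted p = 0.979), 0.12 without treated replicate 1 and 0.14 with the slide as a block, and it turned to -0.0033 and -0.033 on the processed signal scaled to detected or to all miRs. With outlier spots left out the log2FC was 0.05. The probes gave log2FCs of 0.10 and 0.15, and the groups overlapped for the former. miR-27b-3p, from the same cluster, read 9.104, 9.228 and 9.216 in 6h_Ctrl and 9.444, 9.203 and 9.266 in 6h_Giv_Ctrl, where the groups overlapped, and its log2FC was 0.12, or 0.05 without treated replicate 1. The paralogs miR-23a-3p and miR-27a-3p were not detected; miR-23a-3p was well above background on 4 of the 6 arrays.

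**Figure D4:**
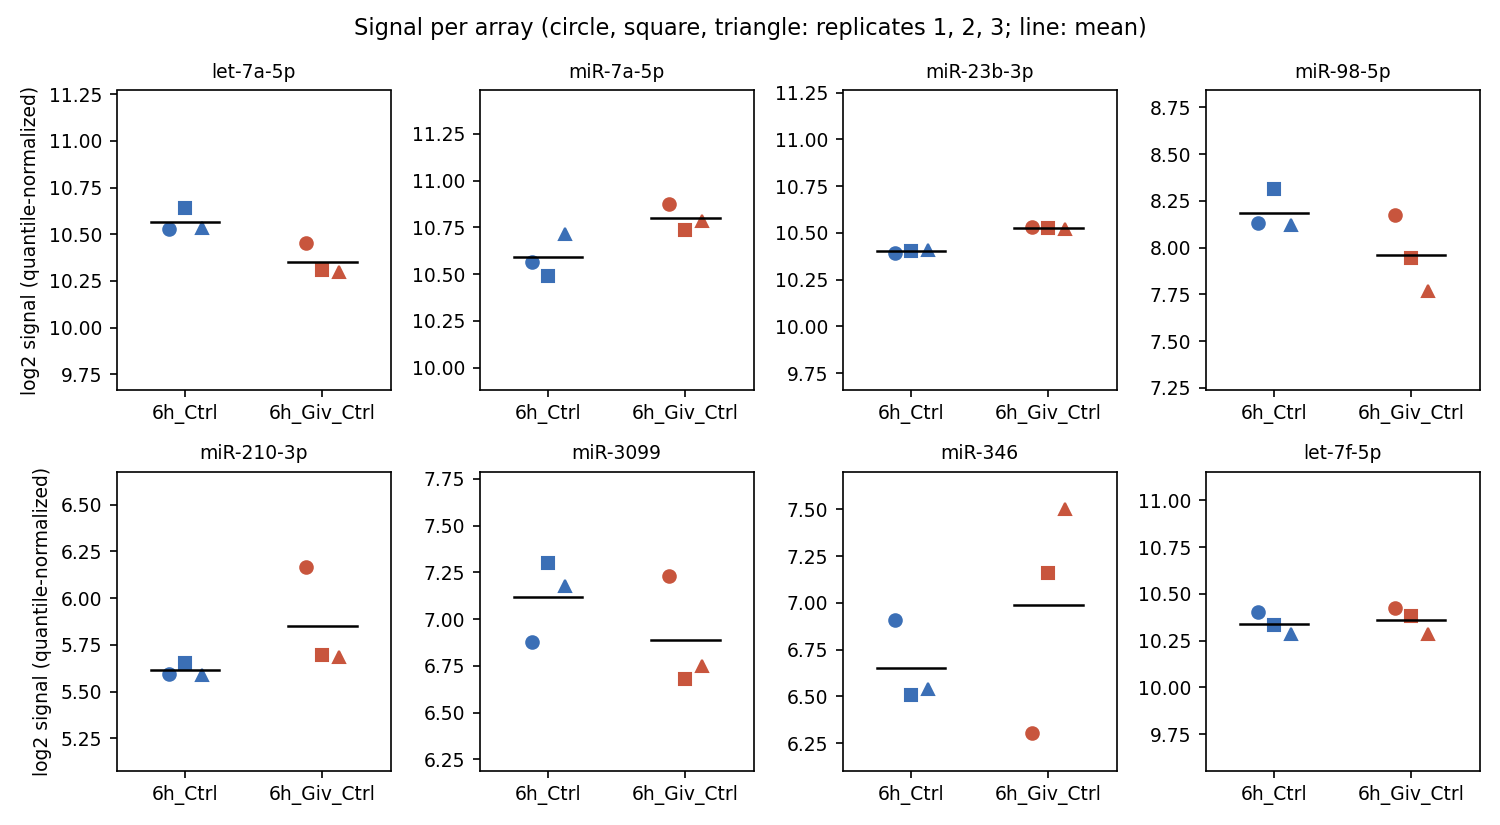
log2 quantile-normalized signal (vertical; every panel spans the same range) of 8 miRs in 6h_Ctrl (blue) and 6h_Giv_Ctrl (red), with circles, squares and triangles for replicates 1 to 3 and lines at group means. The groups do not overlap for let-7a-5p, lower at 10.35 against 10.57, nor for miR-7a-5p, miR-23b-3p and miR-210-3p, higher by 0.21, 0.13 and 0.24. miR-210-3p was not detected and was higher by 0.08 without treated replicate 1. On the processed signal miR-7a-5p and miR-23b-3p turn to -0.080 and -0.0033. Without normalization between arrays miR-98-5p and miR-3099 turn positive, and the median log2FC of all detected miRs is 0.23.

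The miRs called by limma's pooled correlation over single spots were miR-210-3p and miR-346, higher, and miR-3099 and miR-98-5p, lower. That test treated the 16 spots of an array, which share 1 RNA sample, as nearly independent, since the estimated correlation between them was 0.0374. miR-210-3p, a target of the hypoxia response, read 5.60, 5.65 and 5.59 in 6h_Ctrl and 6.16, 5.70 and 5.69 in 6h_Giv_Ctrl. Replicate 1 lay far above the other treated arrays and was the only array on which the miR was well above background. The log2FC in measured signal was 0.24, 0.08 without replicate 1 and 0.32 without replicate 3, and 0.84 and 0.93 on the processed signal scaled to detected or to all miRs. The miR was not well above background on any control array, so these values give no exact fold. The pooled test gave an adjusted p of 9.95e-06, and its range over all alternatives was 9.95e-06 to 1.00.

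miR-346, encoded in an intron of the glutamate receptor gene Grid1, was arranged the other way. It read 6.91, 6.51 and 6.54 in 6h_Ctrl and 6.30, 7.16 and 7.50 in 6h_Giv_Ctrl. Treated replicate 1 was the lowest of all 6 arrays and the other treated arrays were the highest. Its log2FC was 0.34 (SE 0.23), 0.68 without treated replicate 1, 0.25 without replicate 2, 0.08 without replicate 3 and 0.52 with the slide as a block, and its 4 probes gave 0.51, 0.21, 0.39 and 0.24. The pooled test gave an adjusted p of 0.0179, in a range of 0.0179 to 1 over all alternatives with limma.

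miR-3099 read 6.88, 7.30 and 7.17 in 6h_Ctrl and 7.23, 6.68 and 6.75 in 6h_Giv_Ctrl, a log2FC of -0.23. miR-98-5p, a let-7 family member encoded beside a let-7f gene, read 8.13, 8.31 and 8.12 in 6h_Ctrl and 8.18, 7.94 and 7.77 in 6h_Giv_Ctrl, a log2FC of -0.22. For both miRs treated replicate 1 lay among the controls and the other treated arrays below them. Without that array the log2FCs were -0.40 and -0.33, without treated replicate 2 -0.13 and -0.21, without replicate 3 -0.16 and -0.13, and without 6h_Ctrl replicate 2 -0.14 and -0.16. Without normalization between arrays they turned to 0.09 and 0.04. limma's pooled test gave adjusted p values of 0.00165 for miR-3099 and 0.0193 for miR-98-5p, the lowest over all alternatives, of which the highest was 1 for each. miR-223-3p, named after its values were seen, had an adjusted p of 4.25e-05 in the pooled test but a log2FC of -0.137, short of the minimum of 0.138, and was not well above background on any of the 6 arrays.

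Among the β-cell lists, only miR-7a-5p had groups that do not overlap among the detected members. miR-375-3p, which limits insulin secretion and is needed for β-cell mass, read 9.96, 10.07 and 10.28 in 6h_Ctrl and 9.93, 9.92 and 10.20 in 6h_Giv_Ctrl, with overlapping groups and a log2FC of -0.09 (SE 0.12, 95% confidence interval -0.34 to 0.16), which was 0.08 without normalization between arrays and -0.24 and -0.27 on the processed signal scaled to detected or to all miRs. Leaving out 1 array moved it from -0.00061 (6h_Ctrl replicate 3) to -0.18 (treated replicate 3), and without treated replicate 1 it was -0.05. The probes of miR-375-3p gave log2FCs of -0.21 and 0.03. Of the 10 islet and β-cell miRs 5 were detected, 4 with positive and 1 with negative log2FC; their median was 0.03, which turned to -0.02 without treated replicate 1 and to -0.04 on the processed signal scaled to detected miRs. Of 6 miRs known to support insulin synthesis 5 were detected, 2 positive and 3 negative, with a median of -0.02, or -0.09 without treated replicate 1 (positive, 0.01 and 0.25, on the processed signal scaled to detected miRs and without normalization). miR-24-3p had a log2FC of 0.01 and miR-26a-5p the highest, 0.10, which turned to -0.08 and -0.05 on the processed signal scaled to detected miRs. miR-148a-3p of this list, with an unadjusted p of 0.0162, was not well above background on any of the 6 arrays.

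The cluster of miR-183, miR-96 and miR-182, known from neuroendocrine and sensory cells, was detected in full, with a median log2FC of -0.02 that was -0.06 without treated replicate 1 and turned to 0.16 without normalization between arrays. miR-183-5p read 8.276, 8.321 and 8.279 in 6h_Ctrl and 8.416, 8.004 and 7.824 in 6h_Giv_Ctrl. Treated replicate 1 was the highest of the 6 arrays and the other treated arrays the lowest, with a log2FC of -0.21 (SE 0.11) that was -0.38 without replicate 1 and -0.08 without replicate 3 and turned to 0.10 without normalization. miR-96-5p and miR-182 had log2FCs of 0.06 and -0.02, the former turning to -0.06 without treated replicate 1 and the latter to 0.16 without normalization. Of the miR-200 family, which represses the Zeb factors and keeps cells epithelial, 2 of 5 members were detected, miR-141-3p with 0.01 and miR-200c-3p with -0.09, and their median of -0.04 was -0.17 without treated replicate 1 and turned to 0.23 without normalization between arrays.

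Growth-related families also had no called member. Of the miR-15/16 family, which restrains the cell cycle, 4 of 5 members were detected with a median log2FC of -0.09, all negative, which was -0.29 without treated replicate 1 and turned to 0.03 without replicate 3 and to 0.19 without normalization between arrays. miR-16-5p read 9.87, 9.93 and 9.85 in 6h_Ctrl and 10.06, 9.58 and 9.51 in 6h_Giv_Ctrl. Replicate 1 of the treated arrays lay above the controls and the others below. Of the growth-promoting clusters of miR-17 to miR-92 and of miR-106b to miR-25 3 of 9 members were detected, miR-106b-5p, miR-93-5p and miR-25-3p, all from the latter cluster, with log2FCs of 0.0037, -0.15 and -0.13; their median of -0.13 was -0.18 without treated replicate 1 and turned to 0.15 without normalization. miR-93-5p had an unadjusted p of 0.0479 in limma and an adjusted p of 0.979.

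The miR-29 family, which represses collagens and, in β-cells, a lactate transporter, had 3 of 3 members detected and positive, with a median of 0.05. The median turned to -0.09 without treated replicate 1 and to -0.03 with the slide as a fixed block. With the slide as a random block it was 0.03. miR-29b-3p read 9.69, 9.91 and 9.77 in 6h_Ctrl and 10.26, 9.83 and 9.89 in 6h_Giv_Ctrl. Replicate 1 alone lay above all controls. The miR-30 family had 5 of 5 members detected and positive, from 0.01 to 0.14 with a median of 0.06, which turned to -0.01 without treated replicate 1. The highest was miR-30b-5p. Of the miR-23/27 paralogs 2 of 4 were detected, with a median of 0.12 that was 0.09 without treated replicate 1 and 0.02 on the processed signal scaled to all miRs.

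Lists tied to inflammation, p53 and deacetylases had few detected members. Of the NF-kB and cytokine miRs, miR-21-5p (log2FC 0.10, or -0.11 without treated replicate 1) and miR-146b-5p (-0.14, or -0.38) were detected, whereas miR-146a-5p and miR-155-5p exceeded background well on none of the 6 arrays. The median of the former, -0.02, was -0.25 without treated replicate 1 and turned to 0.0084 and 0.24 on the processed signal scaled to detected miRs and without normalization between arrays. None of 4 miR-181 miRs and none of 4 p53-linked miRs of the miR-34 family was detected. Of 7 miRs known to target a deacetylase, miR-22-3p (0.13, or 0.05 without 6h_Ctrl replicate 1) and miR-206-3p (0.01) were detected, with a median of 0.07 that was 0.14 without treated replicate 1 and turned to -0.04 with the median over spots.

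Of 14 neuronal miRs repressed by REST, a repressor that recruits deacetylases, 7 were detected, 5 positive and 2 negative. Their median was 0.04, which turned to -0.05 without treated replicate 1 and to -0.03 with outlier spots left out. The highest was miR-129-2-3p (0.14), the lowest miR-132-3p (-0.22), and miR-129-5p had -0.14; the latter 2 turned to 0.10 and 0.12 without normalization between arrays. Without treated replicate 1 these 3 were 0.06, -0.43 and -0.25, and without replicate 2 they were 0.19, -0.10 and -0.08. miR-124-3p, a neuronal miR that is also present in β-cells, had 0.01. Of 38 miRs of the imprinted Dlk1-Dio3 cluster 3 were detected, miR-299a-5p, miR-494-3p and miR-539-5p, and their median of 0.0017 was 0.13 without treated replicate 1 and -0.03 with the median over spots.

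The reference list held the qRT-PCR references of the study, let-7c, miR-103 and miR-423, and miR-107-3p, which was no reference there and was added as a relative of miR-103. By the study's legends, qRT-PCR with Givinostat was normalized to miR-103 and miR-423, and let-7c served in experiments without Givinostat. Of its 5 miRs let-7c-5p, miR-103-3p and miR-107-3p were detected, with log2FCs of -0.25, -0.18 and -0.03; their median of -0.18 was -0.25 without treated replicate 1 and turned to 0.09 without normalization between arrays. miR-423-3p and miR-423-5p exceeded background well on none of the 6 arrays. Of the 13 miRs the study selected, which were chosen on arrays of this series, 8 were detected, 5 positive and 3 negative. Their median was 0.0035, which turned to -0.11 without treated replicate 1 and to -0.01 with the median over spots. miR-466b-2-3p, one of them, read 10.69, 9.67 and 10.33 in 6h_Ctrl and 9.31, 10.92 and 10.88 in 6h_Giv_Ctrl. It spread over more than 1 log2 unit within either group, and its log2FC was 0.14 (SE 0.42), 0.67 without treated replicate 1, turning to -0.14 without replicate 2 or without 6h_Ctrl replicate 2 and to -0.02 on the processed signal scaled to detected miRs.

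When each of the 6 arrays was left out in turn, the median of the let-7 list ran from -0.32 to -0.15, that of the reference list from -0.26 to -0.13, that of the miR-17 to miR-92 list from -0.19 to -0.03, that of the miR-23/27 list from 0.09 to 0.15 and that of the deacetylase list from 0.03 to 0.14. The medians of the other lists changed sign in this way: islet -0.02 to 0.07, insulin-supporting -0.09 to 0.06, miR-183 cluster -0.06 to 0.01, miR-200 -0.17 to 0.06, miR-15/16 -0.29 to 0.03, miR-29 -0.09 to 0.13, miR-30 -0.02 to 0.12, NF-kB -0.25 to 0.11, neuronal -0.06 to 0.12, Dlk1-Dio3 -0.10 to 0.13, muscle -0.10 to 0.20 and the miRs the study selected -0.11 to 0.03.

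**Figure D5:**
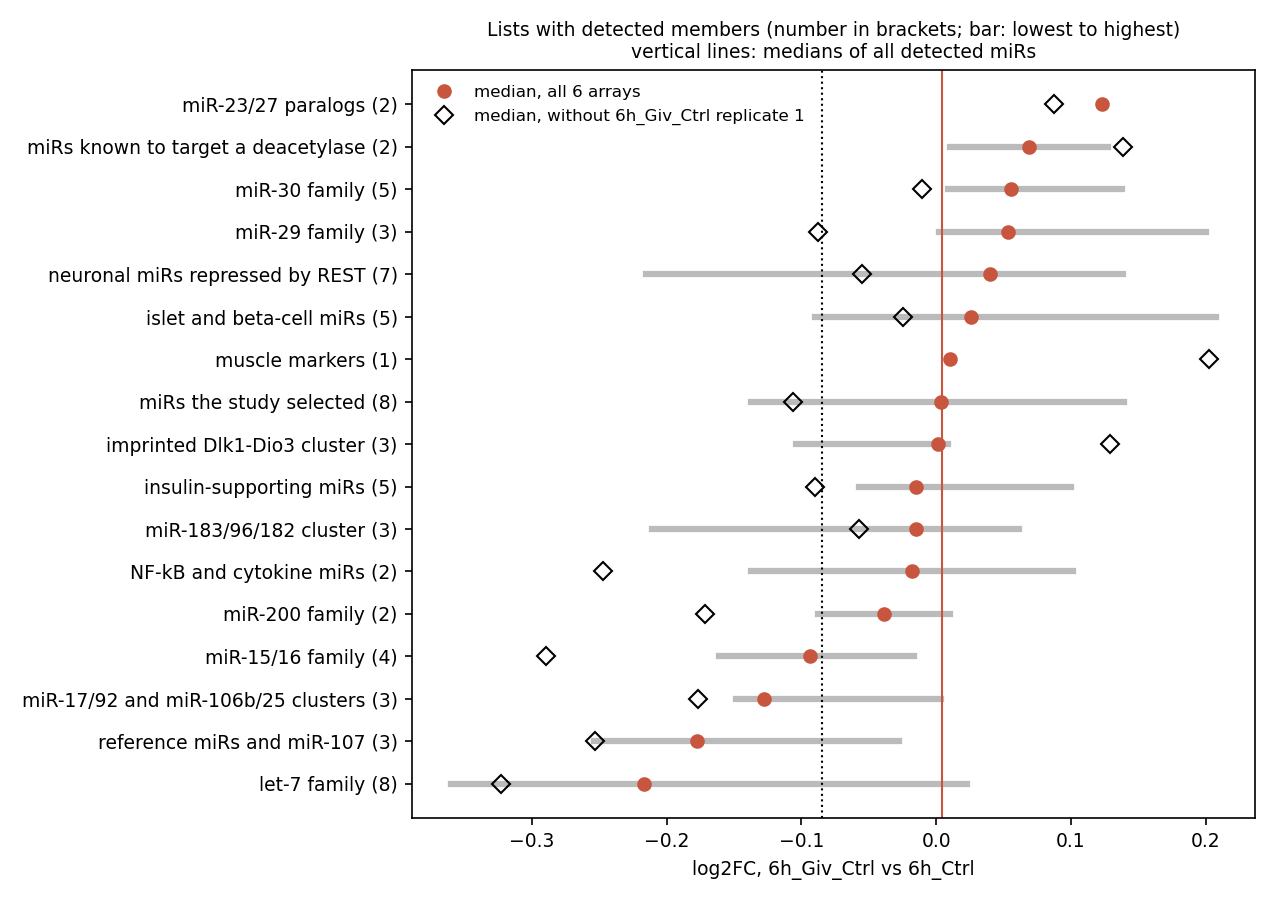
Median log2FC (horizontal) of the detected members of each list (number in brackets), with all 6 arrays (red circles) and without 6h_Giv_Ctrl replicate 1 (open diamonds); grey bars run from the lowest to the highest member and vertical lines mark the medians of all detected miRs, 0.0043 (red) and -0.08 (dotted). The let-7 family is lowest in both, -0.22 and -0.32. Without normalization between arrays its median is -0.0058 and every other negative median turns positive, while the median of all detected miRs is 0.23.

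The effect of Givinostat at 6 h was set against its effect at 24 h and against its effect in the presence of cytokines (IL-1β at 150 pg/ml, IFN-γ at 0.1 ng/ml) at 6 h, which rest on other arrays. The 6h_Giv_Cyt arrays shared a slide that held no 6h_Cyt array. The 24h_Ctrl arrays shared another slide with replicate 1 of 24h_Giv_Ctrl, whose replicates 2 and 3 lay elsewhere. The log2FCs of these effects given below take no account of the slide. Neither test of the difference called a miR with limma on array means. The time term gave 0 called and 17 at an unadjusted p below 0.05, and the cytokine term gave 0 and 12. With limma's pooled correlation 3 miRs were called in the time term and 1 in the cytokine term. The smallest adjusted p was 0.998 for the time term and 0.997 for the cytokine term, against 0.006 and 0.031 with the pooled correlation and a highest value of 1.00 over the alternatives of each. On the processed signal scaled to all miRs limma on array means gave a smallest adjusted p of 0.0345 for the cytokine term, for miR-101a-5p, which did not reach the log2FC minimum and was not well above background on any of the 6 arrays. Without treated replicate 1 of the 6 h comparison the counts at an unadjusted p below 0.05 were 48 and 21, with 0 called. Without 6h_Ctrl replicate 1 they were 46 and 40, and with the slide as a fixed block 17 and 29, each with 0 called.

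let-7a-5p had log2FCs of -0.21 at 6 h, -0.04 at 24 h and 0.0047 with cytokines at 6 h. The difference from 24 h was 0.17 (95% confidence interval -0.11 to 0.45) and that from the effect with cytokines 0.22 (-0.06 to 0.50), and both intervals include 0. let-7e-5p had -0.36, -0.22 and -0.07 in the same order, and the median of the let-7 list was -0.22, -0.12 and -0.04. miR-7a-5p had 0.21, 0.17 and 0.07 and miR-23b-3p 0.13, 0.25 and -0.05. For miR-23b-3p the difference with cytokines was -0.17 (95% confidence interval -0.37 to 0.03). miR-96-5p, called in both terms by the pooled correlation, had 0.06, 0.37 and -0.22; the other two miRs called in the time term were miR-340-5p, with 0.17 at 24 h and -0.03 at 6 h, and miR-743b-5p, with -0.09 and 0.10. The smallest p belonged to miR-497-3p, miR-223-5p and miR-6322 in the time term and to miR-374-5p, miR-292-5p and miR-145-3p in the cytokine term, none of them well above background on any of the 6 arrays. miR-743b-5p was named after its values were seen.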

How the data were processed

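The authors deposited 1 scanner file per array with the intensity of each spot on a linear scale, not normalized between arrays (Agilent Feature Extraction 9.1 per the submitters' notes, 10.7.3.1 per the file headers), and a log2 table with 1 value per miR and array, whose way of summarising spots is not stated and which was used as an alternative. From the scanner files, control spots (715) were removed, the median foreground signal of each spot was used as it stood, with no background subtracted, log2 was taken, the arrays were quantile-normalized and the 16 spots of each miR averaged per array, over its 1 to 4 probe sequences. limma 3.58.1 in R 4.3.3 (lmFit, eBayes) was fitted to all 24 arrays with 8 group means and 16 residual degrees of freedom; adjusted p followed Benjamini-Hochberg over 758 miRs. The pooled correlation test of the methods was an alternative, because spots of an array are not replicates of a treatment. Processed signals were scaled, floored at 4.20 and log-transformed. The fit was tested on simulated data. Arrays were grouped by their titles, and their number limits the precision.

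Named were detected miRs with non-overlapping groups, miRs called by either test, the 5 brightest of 6h_Ctrl, up to 3 per interaction term, detected members of 24 lists, the miRs the study selected and its reference miRs with miR-107-3p. The members and lists were chosen with earlier results of these data known, and the rule of 8 of 16 spots after the files were seen. Other alternatives were the median over spots, mean foreground, normexp (offset 50), processed signal scaled to the 75th percentile, no normalization, miRs detected in any of the 8 groups alone, slide and replicate blocks, the compared groups alone, no log2FC minimum, outlier spots left out and each array left out in turn. Plots were made in Python 3.11.15 with matplotlib 3.10.9.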

Additional observations from a re-analysis of the deposited data

Results flagged for a closer look

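The labelling controls, spike-in RNAs outside the miR measurement, were brighter on 6h_Giv_Ctrl replicate 1 than on any control array. dmr285 had a log10 signal of 3.81 there, against 3.53, 3.47 and 3.42 on 6h_Ctrl replicates 1 to 3 and 3.46 and 3.33 on the other treated arrays. dmr31a had 3.76, against 3.52, 3.44 and 3.43 on the controls and 3.50 and 3.42 on the other treated arrays. The other arrays of its slide and scan day, 24h_Cyt replicates 1 and 2, had 3.79 and 3.69 for dmr285 and 3.75 and 3.66 for dmr31a, so the brighter labelling controls were shared by the slide. The hybridization controls dmr6 and dmr3 were not highest on that array, at 4.43 and 4.56. The part of the labelling in the differences of this array from the others was not tested. Groups of 3 arrays were not tested for single outlying values, and limma on array means called no miR in the tests of the difference from 24 h or from the effect with cytokines.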

How the results depend on the processing

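With limma on array means, 0 miRs were called under every alternative that was run for the comparison and for both interaction terms, except that the pooled correlation over spots called 4, 3 and 1; the cause was not tested beyond that test's use of single spots. When each of the 24 arrays was left out in turn the number called stayed at 0 to 0, while the number at an unadjusted p below 0.05 ran from 20 to 108, and from 32 to 37 for the 18 arrays outside the groups compared. With the replicate number as a block 0 miRs were called in each of the 3 tests and 30 had an unadjusted p below 0.05 in the comparison. Deviations of same-numbered arrays from their group means correlated at -0.897, -0.913 and -0.286 across the detected miRs. Such deviations sum to 0 within a group and treated replicate 1 stood apart, so they cannot tell whether same-numbered arrays were paired. The groups fitted alone had 6 miRs at an unadjusted p below 0.05, no normalization 12, the test limited to the 168 miRs detected in at least 1 of the 8 groups 4, and the remaining alternatives outside array removal and the shared slide 26 to 56. Of 74 named miRs with 2875 values under the alternatives, 225 values changed sign and 16 miRs never did. Among miRs whose groups do not overlap, the log2FC of miR-7a-5p turned to -0.080 and -0.11, that of miR-23b-3p to -0.0033 and -0.033 and, on the scaling to all miRs alone, that of miR-292-5p to 0.00043, all on the processed signal; the cause was not tested. The median log2FC of all miRs moved to 0.04 and that of detected miRs to 0.23 without normalization between arrays. Signal over background limits the comparison to the 130 miRs detected in either of its groups.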
